A study of Mus musculus with 24 samples.

Results

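The constitutive proteasome is the protein-degrading machine that every cell carries, and 34 genes of its subunits and dedicated assembly factors were followed here in mouse lung after ozone. They are Psma1 to Psma7, Psmb1 to Psmb7, Psmc1 to Psmc6 and Psmd1 to Psmd14, chosen by gene symbol from the array's annotation, without the interferon-inducible catalytic subunits. For each gene the probe set with the highest mean log2 signal was used. Of the 34 genes, 33 were bright enough to be tested, among 8008 genes in all. The one left out was Psmd10, an assembly chaperone also called gankyrin, whose signals lay between 111.9 and 219.6 and passed the brightness filter of 218.3 on 1 of 24 arrays, where at least 3 were required.

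The proteasome is built from a barrel-shaped core particle and a regulatory particle that caps it. The outer rings of the barrel are made of alpha subunits and form the gate, and the inner rings are made of beta subunits, of which Psmb5, Psmb6 and Psmb7 carry the peptide-cutting sites. The regulatory particle binds proteins tagged with ubiquitin, removes the tag, and uses a ring of ATPases to unfold the protein and thread it into the barrel. In immune cells and after interferon, Psmb8, Psmb9 and Psmb10 replace the constitutive catalytic subunits and give the immunoproteasome, which favours peptides for class I antigen presentation. In cells whose proteasomes are inhibited, the transcription factor encoded by Nfe2l1 is known to raise proteasome genes together, and the one encoded by Nfe2l2 raises some of them under oxidative stress.

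The study set C3H/HeJ mice, which carry a dominant negative Tlr4 (the receptor for bacterial endotoxin), beside C3H/HeOuJ mice, whose Tlr4 is sufficient; they are called HeJ and OuJ here. Male mice breathed ozone for 6, 24 or 48 h or air, and RNA of the left lung lobe of each mouse was measured on an array of its own, 3 mice for each of the 8 groups. The sources used here give neither the ozone concentration nor the age of the mice. The lobe holds all lung cell types together, so fewer cells of a type and less RNA per cell cannot be told apart. The HeJ change affects the protein, and the signal of Tlr4 does not check it: it ran between 182.8 and 299.4 in HeJ and between 160.6 and 291.3 in OuJ.

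Signals are scanner intensities scaled by the authors, and the median of an array lay between 200.1 and 229.3. Differences are given on the scale of log2(signal + 16), ozone minus air or HeJ minus OuJ, with the standard error (SE) of the fit. A gene is said to have risen or fallen where limma's moderated test gave an adjusted p under 0.05 over all 8008 genes. The submitters' sample codes place the air and 6 h mice of both strains in series 3, the OuJ mice of 24 and 48 h in series 10 and the HeJ mice of 24 and 48 h in series 13. What the series stand for is not stated, and for 24 and 48 h against air they cannot be told apart from exposure. The strains' responses at 24 and 48 h also lie in different series, so a strain difference of the response at these times cannot be told apart from series either. All 3 ozone times of a strain were set against the same 3 air arrays.

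After 48 h of ozone, proteasome transcripts were higher than in air in HeJ lungs by a small amount across nearly the whole set. Of the 33 genes, 8 rose and 0 fell, which is 24.2% of the members against 5.67% of all genes tested that rose and 6.44% that fell in the same comparison. The 8 were the catalytic subunits Psmb5 and Psmb7, the alpha subunit Psma3 and the regulatory-particle subunits Psmd1, Psmd6, Psmd7, Psmd11 and Psmd14. The difference was above 0 for 32 of 33 members (97%), against 44.8% of all genes, and the median was 0.24 (from -0.02 to 0.55), against -0.03 for all genes. All 3 arrays at 48 h lay above all 3 air arrays for 18 members, or 54.5%, against 13.7% of all genes. The test at an unadjusted p under 0.05 took 16 members (48.5%), against 11.2% of all genes.

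The mean log2 level of the 33 members on an array makes the shift visible mouse by mouse. In HeJ it lay between 10.426 and 10.514 in air, between 10.357 and 10.534 at 6 h, between 10.532 and 10.632 at 24 h and between 10.681 and 10.714 at 48 h. The 48 h arrays stood above every other HeJ array. In OuJ it lay between 10.46 and 10.512 in air, between 10.484 and 10.549 at 6 h, between 10.449 and 10.579 at 24 h and between 10.48 and 10.549 at 48 h, and these ranges all overlapped. Of the 4 HeJ groups, 48 h had the highest group mean for 25 of the 33 members, 24 h for 6, 6 h for 1 and air for 1. The 48 h group was lowest for 0 members, and it was highest for 27.8% of all genes tested. In OuJ the highest group was 48 h for 11 members, 24 h for 7, 6 h for 9 and air for 6.

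**Figure D1:**
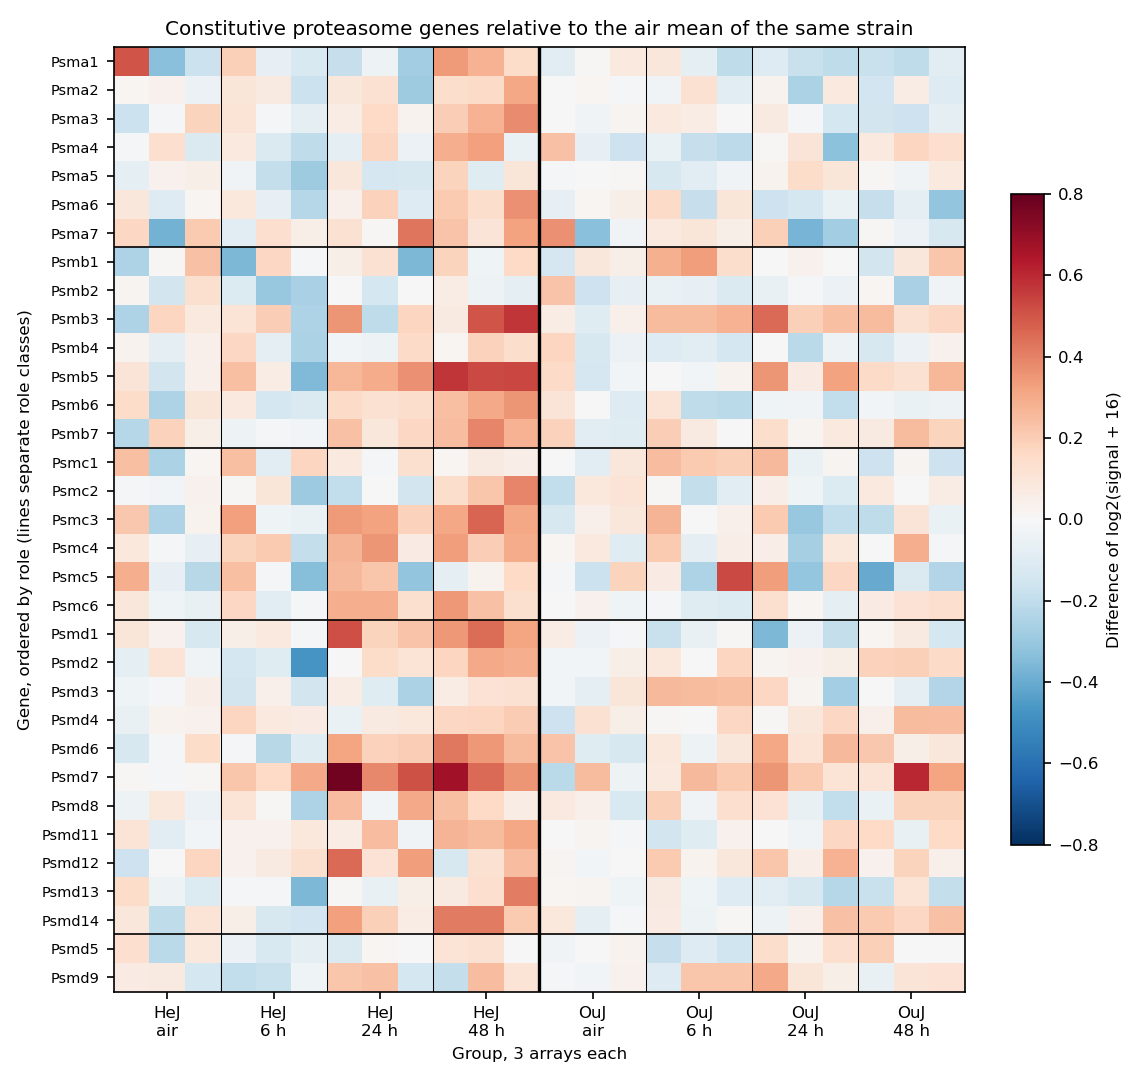
Each cell is 1 array's log2(signal + 16) of 1 gene minus the air mean of its strain; rows are the 33 genes by role and columns the 24 arrays by group. The 48 h columns of HeJ are red in most rows, where the median of the members was 0.24, and the OuJ side is mixed, with a 48 h median of 0.05.

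At the same time OuJ lungs showed no member that passed. At 48 h 0 of 33 members were called by limma, against 7.9% of all genes in either direction, and 1 member, Psmd7, had an unadjusted p under 0.05, against 21.4% of all genes. The differences of 19 members were above 0 (57.6%, against 46.2% of all genes), the median was 0.05 (from -0.25 to 0.34), and the smallest adjusted p was 0.147. All 3 arrays at 48 h lay above all 3 air arrays for 5 of the 33 members, against 1005 of all 8008 genes. They lay below for 3 members, against 1388 of all 8008 genes. Whether the strains differ in this response was tested directly, as the HeJ difference minus the OuJ difference, with series 13 on the HeJ side and series 10 on the OuJ side. At 48 h it was above 0 for 30 of 33 members (90.9%, against 50% of all genes), with a median of 0.19 (from -0.01 to 0.43). No member passed and the smallest adjusted p was 0.334, in a comparison where 0% of all genes passed either. At an unadjusted p under 0.05 it took 6 members, 18.2% against 3.87% of all genes on the same side: Psma3, Psma6, Psmd1, Psmb6, Psmb5 and Psmc3. A larger response in HeJ was therefore not established for any single gene.

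**Figure D2:**
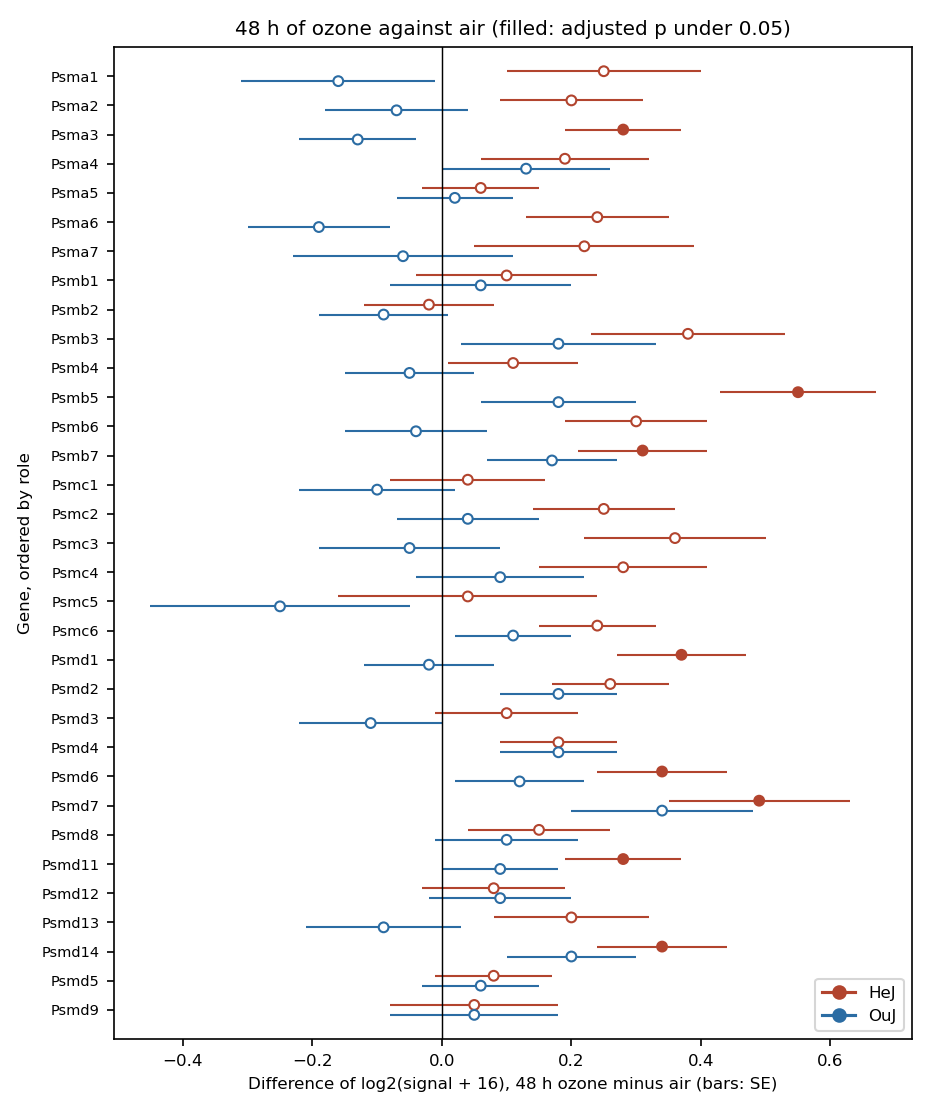
Points are the differences of log2(signal + 16) between 48 h of ozone and air, with SE bars, for the 33 genes by role, HeJ red and OuJ blue, from 3 arrays a group. The 8 filled points are the members that passed, all in HeJ, and the SE bars of the strains overlap for many genes.

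Markers of other cell types also changed in the same lobes. At 48 h, 5 of 8 measured markers of proliferating cells rose in HeJ and 8 of 8 in OuJ, with Mki67 higher by 1.53 in HeJ and by 1.58 in OuJ. Their mean log2 level per array lay between 8.95 and 9.04 at 48 h against 7.53 and 8.16 in air in HeJ, and between 8.99 and 9.32 against 7.65 and 7.97 in OuJ. B cell markers fell for 5 of 6 in HeJ and 4 of 6 in OuJ, with array means of 8.69 to 9.15 at 48 h against 9.74 to 10.06 in air in HeJ. T and NK cell markers fell for 5 of 6 in HeJ and 2 of 6 in OuJ. Endothelial markers fell for 6 of 7 in HeJ and 3 of 7 in OuJ, and of 7 macrophage markers 2 rose and 1 fell in HeJ and 0 passed in OuJ. Of 5 neutrophil markers 0 passed in HeJ and 2 fell in OuJ; of the epithelial markers, 1 of 7 for alveolar type 2 cells rose in each strain, 0 of 6 for type 1 cells passed, and 1 of 5 for club cells fell in HeJ. The signal ratio of 5′ to 3′ Gapdh probes, a sign of RNA integrity, was 0.497 to 0.67 at 48 h against 0.511 to 0.621 in air in HeJ and 0.824 to 1.03 against 0.781 to 0.933 in OuJ. At 24 h it was 0.605 to 0.944 in HeJ and 0.794 to 0.948 in OuJ. The part of these in the proteasome differences was not tested.

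The alpha ring, which gates the core particle, had 1 of 7 members that rose at 48 h in HeJ, with a median of 0.22 (OuJ median -0.07, 0 of 7). Psma3, one of its ring subunits, had signals in HeJ of 2122.8, 2381.1 and 2714.6 in air, 2587.2, 2383.4 and 2265 at 6 h, 2496.3, 2673.2 and 2445.5 at 24 h and 2745.6, 2909.3 and 3113.5 at 48 h. In OuJ its signals were 2319.8, 2273.2 and 2351.5 in air and 2092.9, 2061.7 and 2199 at 48 h. The 48 h arrays of HeJ were all above its air arrays, and those of OuJ all below. The difference was 0.28 ± 0.09 in HeJ (SE; 1.22-fold, adjusted p = 0.044) and -0.13 in OuJ (adjusted p = 0.467), and the strain difference of 0.41 ± 0.13 had an adjusted p of 0.334, the smallest of the members. Psma6 had signals of 3003.6, 2869.2 and 3353.4 at 48 h against 2767.8, 2420.9 and 2624.6 in air in HeJ. In OuJ its 48 h signals were 2098.6, 2271.4 and 1913.1 against 2283.8, 2418.6 and 2463.2 in air. On this probe set Psma6 differed the same way as Psma3, by 0.24 in HeJ (adjusted p = 0.165) and -0.19 in OuJ (adjusted p = 0.323), and neither passed. The other kept probe set of Psma6, bright on all 24 arrays, differed by 0.13 in HeJ and 0.04 in OuJ. The lower OuJ level of Psma6 thus rested on 1 probe set. The other alpha subunits, Psma1, Psma2, Psma4, Psma5 and Psma7, had HeJ differences at 48 h of 0.06 to 0.25.

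The beta ring held the clearest member. Psmb5, which carries the chymotrypsin-like site, had signals in HeJ of 1873.4, 1568.2 and 1792.6 in air, 2062.7, 1809.7 and 1356.2 at 6 h, 2092.2, 2140.9 and 2242.4 at 24 h and 2596.8, 2521.1 and 2522.6 at 48 h. In OuJ they were 1869.2, 1530.7 and 1652.3 in air, 1684.7, 1655.4 and 1710.5 at 6 h, 2150.2, 1759.6 and 2101.3 at 24 h and 1865.2, 1827.2 and 2018.4 at 48 h. Its HeJ arrays at 48 h exceeded every other Psmb5 array of the study, and its OuJ arrays at 48 h overlapped those in air. At 48 h Psmb5 rose by 0.55 ± 0.12 in HeJ (1.46-fold, adjusted p = 0.00395), and in OuJ it was 0.18 higher (95% interval -0.07 to 0.43, adjusted p = 0.425). The difference between the strains, 0.37, did not pass (95% interval 0.02 to 0.72, adjusted p = 0.58). Of the 8 members that rose, 1, Psmb5, did so under all 17 settings tried, with differences of 0.47 to 0.60.

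The other catalytic subunits moved less. Psmb7, the trypsin-like subunit, had 3739.6, 4135 and 3833 at 48 h against 2686.1, 3584.3 and 3252.4 in air in HeJ, a difference of 0.31 ± 0.10 (1.24-fold, adjusted p = 0.0484). In OuJ its signals were 3693, 4201.1 and 3983.1 against 3996.8, 3316 and 3290.1, which overlap (difference 0.17, adjusted p = 0.363). Psmb6, the caspase-like subunit, had 2108.3, 2198.9 and 2277.1 at 48 h against 1977.6, 1500.6 and 1903.3 in air in HeJ, again without overlap, but its difference of 0.30 ± 0.11 missed the threshold (adjusted p = 0.0714). In OuJ Psmb6 had 1829.4, 1785.9 and 1801.3 against 1992.2, 1861.9 and 1726.3, a difference of -0.04. The structural beta subunits Psmb1, Psmb2, Psmb3 and Psmb4 had HeJ differences at 48 h of -0.02 to 0.38, and none passed. The ring's median was 0.30 in HeJ, with 2 of 7 members that rose, and 0.06 in OuJ with 0 of 7.

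**Figure D3:**
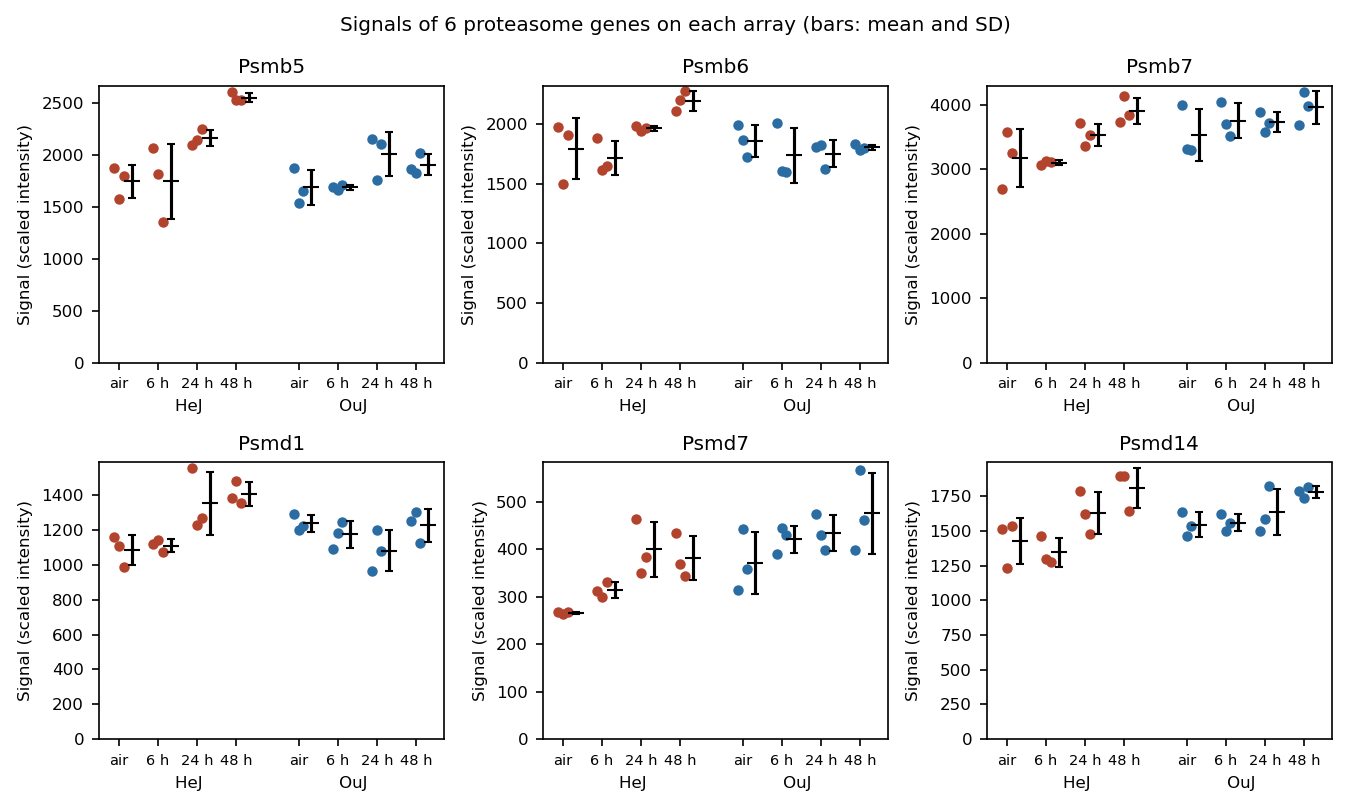
Dots are the scaled signals of 6 genes on each of the 24 arrays, HeJ red and OuJ blue, by exposure, with bars for the group mean and SD (n = 3). The Psmb5 dots of HeJ at 48 h, between 2521.1 and 2596.8, lie above all others of that gene.

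Start-region sequences are shown for the 3 members that rose at 48 h in HeJ and whose window held a searched motif. They are the 250 bases before the annotated start (RefSeq, GRCm38.p6), read 5′ to 3′ on the gene's strand. Psmb5 is chr14:54617996-54618245 (minus strand), Psma3 is chr12:70974373-70974622 (plus strand) and Psmd14 is chr2:61711444-61711693 (plus strand). Capitals mark the matches: in Psmb5 GAANNTTC, a pair of heat shock element units, and TGACNNNGC, the antioxidant response element core bound by Nfe2l1 and Nfe2l2; in Psma3 CCAAT; and in Psmd14 CCAAT on the opposite strand.
Psmb5: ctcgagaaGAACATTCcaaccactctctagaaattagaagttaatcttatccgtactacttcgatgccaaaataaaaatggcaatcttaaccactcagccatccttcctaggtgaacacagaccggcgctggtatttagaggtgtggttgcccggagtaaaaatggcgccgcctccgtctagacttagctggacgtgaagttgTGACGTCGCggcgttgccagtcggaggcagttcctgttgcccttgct
Psma3: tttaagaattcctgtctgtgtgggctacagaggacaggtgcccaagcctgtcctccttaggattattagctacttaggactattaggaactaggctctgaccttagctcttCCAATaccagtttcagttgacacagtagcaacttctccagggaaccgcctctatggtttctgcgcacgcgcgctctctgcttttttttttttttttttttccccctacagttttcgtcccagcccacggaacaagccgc
Psmd14: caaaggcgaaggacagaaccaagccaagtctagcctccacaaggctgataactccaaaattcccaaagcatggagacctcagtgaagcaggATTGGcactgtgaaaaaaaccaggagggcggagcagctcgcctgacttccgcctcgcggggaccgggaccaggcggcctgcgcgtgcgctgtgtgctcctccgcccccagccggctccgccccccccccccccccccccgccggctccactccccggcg
All motifs were searched on both strands in windows from 250 bases before to 50 after the start, the heat shock pair also as TTCNNGAA, and 28 members had a window. TGACNNNGC was in 5 of these 28 genes (17.9%), against 14.0% of all 27025 genes with a window, and the 5 were Psmb5, Psmb6, Psmc6, Psmd9 and Psmd12. CCAAT was in 39.3% of the members against 41.1% of all genes, and the heat shock pair in 7.1% against 17%. Of the 8 members that rose at 48 h in HeJ, 6 had a window and 1 of these, Psmb5, held TGACNNNGC. A match is a description of the letters in the window.

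The ATPase ring, Psmc1 to Psmc6, which unfolds substrates, had a median of 0.24 at 48 h in HeJ and 0 in OuJ, and 0 of 6 members passed in either strain. Psmc3 had 1642.6, 1831.5 and 1637.8 at 48 h against 1535.6, 1112.5 and 1346.8 in air in HeJ, and 1355.9, 1679.2 and 1503.8 against 1428.4, 1604.6 and 1663.8 in OuJ. Psmc6 had 1576.1, 1460.1 and 1352.1 against 1318.3, 1208 and 1185.9 in HeJ, and 1452.6, 1507.4 and 1529.6 against 1394.2, 1421.7 and 1355 in OuJ. In HeJ both genes were above air on all 3 arrays, with differences of 0.36 ± 0.14 (adjusted p = 0.0922) and 0.24 ± 0.09 (adjusted p = 0.097). Psmc1 and Psmc5 differed by 0.04 each in HeJ; the ring's members thus ranged from 0.04 to 0.36.

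The non-ATPase subunits of the regulatory particle, which bind and deubiquitinate substrates and hold the particle together, had most of the members that rose: 5 of 11 at 48 h in HeJ, with a median of 0.26 (OuJ 0 of 11, median 0.10). Psmd1, the large scaffold that carries ubiquitin receptors, had signals of 1383.4, 1483.7 and 1353.5 at 48 h against 1157.5, 1107.8 and 989 in air in HeJ. In OuJ it had 1253.1, 1304.1 and 1122.6 against 1293.8, 1199.1 and 1224.3. It rose by 0.37 ± 0.10 in HeJ (1.29-fold, adjusted p = 0.0206), and in OuJ the arrays overlapped, with a difference of -0.02. Psmd14, the deubiquitinase that cuts off the ubiquitin chain, had 1895.6, 1895.8 and 1644.2 against 1515.5, 1232.9 and 1532.4 in HeJ, and 1789.8, 1734.7 and 1816.1 against 1639.4, 1465.9 and 1533.7 in OuJ. All 48 h arrays were above all air arrays in both strains, with differences of 0.34 ± 0.10 in HeJ (1.27-fold, adjusted p = 0.0312) and 0.20 in OuJ (adjusted p = 0.266).

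Psmd7, the partner of Psmd14 in the lid, was the only member that passed before 48 h. In HeJ its signals were 267.3, 263.1 and 267.1 in air, 312, 298.8 and 332.1 at 6 h, 465.3, 351.2 and 384.3 at 24 h and 433.9, 369.4 and 343.8 at 48 h. In OuJ they were 314.9, 443.5 and 358.6 in air, 390.1, 444.7 and 429.6 at 6 h, 475.5, 429.8 and 399.2 at 24 h and 398.6, 568.2 and 462.1 at 48 h. Every HeJ array after ozone exceeded those in air, while the OuJ groups overlapped. The HeJ array with the highest Psmd7 signal, 24 h replicate 1, also had the highest 5′ to 3′ Gapdh ratio of the HeJ arrays, 0.944, and the ratio averaged 0.753 at 24 h against 0.558 in air in HeJ; its part in the difference was not tested. Psmd7 rose in HeJ by 0.55 ± 0.14 at 24 h (1.47-fold, adjusted p = 0.0166) and by 0.49 ± 0.14 at 48 h (1.41-fold, adjusted p = 0.0226), and in OuJ it was 0.34 higher at 48 h (95% interval 0.05 to 0.63, adjusted p = 0.147). In air it was lower in HeJ than in OuJ on all 3 arrays, a difference of -0.45 ± 0.14, which did not pass (adjusted p = 0.122).

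The lid subunits Psmd6 and Psmd11 completed the set. Psmd6 had 1850.8, 1762.4 and 1644.8 at 48 h against 1260.3, 1364.3 and 1527 in air in HeJ, and 1625.5, 1448.1 and 1490.5 against 1640.3, 1304.7 and 1279 in OuJ. Psmd11 had 4225.6, 4185.5 and 4347.8 against 3777.9, 3297.7 and 3450.7 in HeJ, and 3692.6, 3181.2 and 3692.9 against 3299.6, 3357.2 and 3277.7 in OuJ. Both were above air on all HeJ arrays and overlapped in OuJ. The differences in HeJ were 0.34 ± 0.10 for Psmd6 (1.27-fold, adjusted p = 0.0345) and 0.28 ± 0.09 for Psmd11 (1.21-fold, adjusted p = 0.0422), and in OuJ 0.12 and 0.09. Psmd2, another scaffold, was 0.26 higher in HeJ (adjusted p = 0.0744). Psmd4, a ubiquitin receptor, differed by 0.18 in each strain without passing, and Psmd3, Psmd8, Psmd12 and Psmd13 had HeJ differences of 0.08 to 0.20.

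The assembly chaperones of the regulatory particle did not pass in either strain. Psmd5 had 989.5, 999.7 and 916.8 at 48 h against 1007.5, 787.6 and 974.8 in air in HeJ, and 1064.2, 930.1 and 936.3 against 912.7, 934.6 and 949.8 in OuJ. Psmd9 had 320.5, 440.1 and 398.2 against 387, 389 and 332.8 in HeJ, and 307.2, 346.5 and 349.4 against 319.3, 315.5 and 328.9 in OuJ. In both strains the groups of both genes overlapped, and the differences of 0.05 to 0.08 did not pass.

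Of the members, 13 had further probe sets bright enough to keep, 15 in all, which serve as a second reading of the same genes. At 48 h in HeJ 13 of the 15 were above air and 2 below, with a median of 0.26, and in OuJ 8 were above and 7 below, with a median of 0.04. The 4 kept probe sets of Psmd11 differed by 0.26 to 0.28 in HeJ. With their mean the Psmd11 difference was 0.27 and missed the threshold (adjusted p = 0.0544). The probe sets disagreed by more than 0.15 at 48 h in HeJ for 7 members. The further probe set was higher for Psmb4 (0.54 against 0.11 for the one used), Psmc4 (0.48 against 0.28, bright on 9 of 24 arrays), Psma5 (0.25 against 0.06) and Psmd13 (0.37 against 0.20). It was lower for Psmb1 (-0.10 against 0.10), Psmb3 (0.22 against 0.38) and Psmd9 (-0.55 against 0.05, bright on 3 of 24 arrays). For Psmc2 the readings differed at 24 h in HeJ, with 0.31 against -0.12 for the one used.

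Earlier times showed less than 48 h did in HeJ. At 6 h, 0 of 33 members passed in HeJ and 0 in OuJ, by limma, where 0.0375% of all genes passed in either direction in HeJ and 0.137% in OuJ. An unadjusted p under 0.05 took 2 members in HeJ, against 9.03% of all genes, and 1 in OuJ, against 10.5%. Differences were above 0 for 12 members in HeJ (36.4%, against 44.8% of all genes, median -0.04) and for 21 in OuJ (63.6% against 46.3%, median 0.04). At 24 h, 1 member, Psmd7, rose in HeJ, where 3.15% of all genes rose. In that comparison 24 members were above 0 (72.7%, against 45.7% of all genes), with a median of 0.09. At an unadjusted p under 0.05 it took 6 members, all higher (18.2%), against 732 of all 8008 genes on the same side. In OuJ 0 passed at 24 h, against 6.57% of all genes, and 2 had an unadjusted p under 0.05, against 19.9% of all genes. There 17 members were above 0 (51.5% against 44.9%), with a median of 0.01. The strain difference had 0 members that passed at 6 h (median -0.04) and 0 at 24 h (median 0.06), where 0.0125% of all genes passed at each time. An unadjusted p under 0.05 took 2 members at 6 h, against 5.76% of all genes, and 1 at 24 h, against 7.82%.

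The later of the steps could be compared within 1 code series. In HeJ, though, the codes of 24 h replicates 1 and 3 carry a suffix and those of the 48 h arrays do not. Suffix and time thus cannot be fully told apart there. From 24 to 48 h in HeJ, 1 member rose, the ATPase Psmc2, with 2628.2, 2780.9 and 3120.1 at 48 h against 2072.2, 2369.2 and 2143.4 at 24 h, where 2.62% of all genes rose. The 48 h arrays were all above those of 24 h, and the difference was 0.37 ± 0.11 (1.29-fold, adjusted p = 0.0411). The other kept probe set of Psmc2, bright on all 24 arrays, gave a difference of 0 between these times, and with the mean of the kept probe sets Psmc2 differed by 0.18 and did not pass (adjusted p = 0.253). The call thus rested on 1 of the gene's 2 kept probe sets. Of the 33 members 26 were higher at 48 h (78.8%, against 49.6% of all genes), with a median of 0.14, and 11 did not overlap and lay above (33.3%, against 12.3% of all genes). In OuJ 0 members passed by limma between 24 and 48 h, where 0.15% of all genes passed, and 0 had an unadjusted p under 0.05, against 7.99% of all genes. The Psmc2 call was lost without HeJ 24 h replicate 1 or 3 or HeJ 48 h replicate 2 or 3. The 5′ to 3′ ratio of Gapdh averaged 0.593 at 48 h against 0.753 at 24 h in HeJ, and that of actin 0.661 against 0.765, and their part in this comparison was not tested. In air, also within 1 code series, 0 members differed between HeJ and OuJ by limma, against 0.774% of all genes, and 4 had an unadjusted p under 0.05, against 14.2% of all genes: Psmd7 lower in HeJ and Psmd2, Psmd3 and Psmd4 higher by 0.20 to 0.29. The 5′ to 3′ ratios of the strains did not overlap in air. Gapdh had 0.511 to 0.621 in HeJ and 0.781 to 0.933 in OuJ, and actin 0.571 to 0.69 and 0.848 to 0.89. The part of these ratios in the strain differences was not tested.

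The 48 h count in HeJ depended on single arrays. It was 3 without HeJ air replicate 2, 4 without HeJ air replicate 3, 3 without HeJ 48 h replicate 1, 1 without HeJ 48 h replicate 2 and 5 without HeJ 48 h replicate 3, and the median stayed between 0.20 and 0.24. The Psmd7 call at 24 h was lost without HeJ air replicate 2 or HeJ 24 h replicate 1. Without HeJ 24 h replicate 2 the count at that time was 3. The sample codes of HeJ air replicate 2 and HeJ 24 h replicate 1 carry a suffix, whose meaning is not stated.

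Of the inducible catalytic subunits, Psmb8 and Psmb9 fell at 48 h in both strains and Psmb10 fell in OuJ, while in HeJ it differed from air by -0.03. Psmb8, which takes the place of Psmb5, had 1039, 1015.3 and 964.4 at 48 h against 1497.8, 1230.8 and 1288.9 in air in HeJ, and 1060.2, 1152.1 and 1125.4 against 1766, 1525.1 and 1252.5 in OuJ. It fell in both strains without overlap, a difference of -0.40 ± 0.13 in HeJ (adjusted p = 0.0465) and -0.43 ± 0.13 in OuJ (adjusted p = 0.0449). In OuJ Psmb8 had already fallen at 24 h, with signals of 971.2, 902 and 1113.8, all below air (adjusted p = 0.00701). At 24 h in HeJ it did not pass. Psmb9, which takes the place of Psmb6, had 813.6, 600.5 and 686.4 against 1481.4, 1070.2 and 1041.8 in HeJ, and 714.6, 629 and 790.2 against 1549.5, 1479.3 and 751.1 in OuJ. It fell in both strains, with a difference of -0.75 ± 0.23 in each (adjusted p = 0.0303 in HeJ and 0.0413 in OuJ), though in OuJ 1 air array lay within the 48 h range. Thus in HeJ Psmb5 rose while Psmb8 fell, and Psmb6 was higher, short of the threshold, while Psmb9 fell.

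Psmb10, which takes the place of Psmb7, had signals in HeJ of 1498.3, 1507.4 and 1427.9 in air, 1506.4, 1125.6 and 1072.4 at 6 h, 744.4, 1046 and 1144.4 at 24 h and 1381.5, 1515.2 and 1441.1 at 48 h. In OuJ they were 1488.3, 1630.2 and 1148.6 in air, 997.6, 1297.5 and 869.5 at 6 h, 991, 840.8 and 895 at 24 h and 849.3, 1051.9 and 905.8 at 48 h. In HeJ it was below air at 24 h and overlapped air at 48 h, and in OuJ it was below air at both times. The difference was -0.61 at 24 h (adjusted p = 0.0225) and -0.03 at 48 h (adjusted p = 0.932) in HeJ, and -0.63 (adjusted p = 0.0213) and -0.59 (adjusted p = 0.0259) in OuJ. From 24 to 48 h it rose in HeJ by 0.58 (adjusted p = 0.0388). The strain difference at 48 h, 0.55, did not pass (adjusted p = 0.513). Psme1, a subunit of the interferon-inducible activator, fell in HeJ at 24 h (difference -0.35, adjusted p = 0.0348). These calls were sensitive to single arrays. In HeJ the 48 h call of Psmb8 and the 24 h call of Psme1 were lost on leaving out any 1 of the 6 arrays compared, and that of Psmb9 without air replicate 1 or 48 h replicate 2 or 3. The Psmb10 call at 24 h in HeJ was lost without any 1 air array or 24 h replicate 1, and its rise to 48 h without 24 h replicate 1 or any 1 of the 48 h arrays. In OuJ the 48 h calls of Psmb8, Psmb9 and Psmb10 were lost without air replicate 1 or 2 or 48 h replicate 1 or 3, and those of Psmb8 and Psmb9 also without 48 h replicate 2. The OuJ call of Psmb10 at 24 h was lost without air replicate 1 or 2 or 24 h replicate 2 or 3. That of Psmb8 at 24 h held in 16 of 17 settings, with differences of -0.72 to -0.47, and was lost without air replicate 1. The lymphocyte markers, whose cells carry much immunoproteasome, fell in the same lobes, and their part was not tested.

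**Figure D4:**
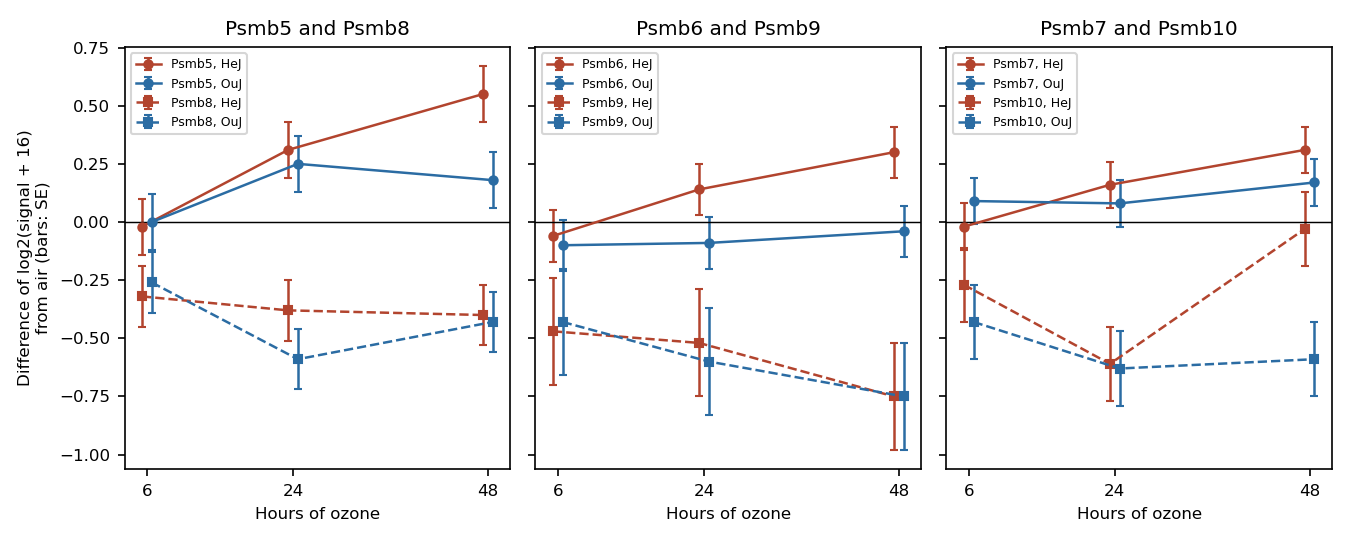
Each panel pairs a constitutive catalytic subunit (solid line, circles) with its inducible counterpart (dashed, squares): the difference of log2(signal + 16) from air, with SE bars, against hours of ozone, HeJ red and OuJ blue (3 arrays a group). At 48 h Psmb5 stood at 0.55 and Psmb8 at -0.40 in HeJ, and at 0.18 and -0.43 in OuJ.

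Genes that build and steer the proteasome moved in part. The core assembly chaperones Pomp and Psmg1 to Psmg4, which help the rings form, were all above 0 at 48 h in HeJ (median 0.32, from 0.03 to 0.38), and 0 of 5 passed; in OuJ the median was 0.03 and 0 of 5 passed. Of 8 further regulatory-particle components and associated factors, 1 rose in HeJ, Txnl1, a thioredoxin-like protein that binds the particle (0.50, adjusted p = 0.00333), and in OuJ Txnl1 rose (0.35, adjusted p = 0.0417) and Zfand5, an activator, fell (-0.27, adjusted p = 0.0363). Of 5 regulators, Nfe2l2 rose in both strains (0.77 in HeJ, adjusted p = 0.000469; 0.74 in OuJ, adjusted p = 0.00096), and Vcp, the segregase that hands over ubiquitinated proteins, rose in HeJ (0.28, adjusted p = 0.0332). Nfe2l1 differed by -0.05 in HeJ and -0.04 in OuJ and did not pass. Of 10 ubiquitin shuttles and cofactors of Vcp, 1 rose in HeJ, Ubqln4 (0.42, adjusted p = 0.0235), and 0 in OuJ. The 3 measured activators and inhibitors (Psme3, Psme4 and Psmf1) did not pass in either strain. In HeJ the call of Vcp was lost without air replicate 2 or 3 or 48 h replicate 2 or 3, and that of Ubqln4 without air replicate 2 or any 1 of the 48 h arrays. In OuJ Txnl1 was lost without air replicate 1 or 2 or any 1 of the 48 h arrays, and Zfand5 without any 1 air array or 48 h replicate 1 or 3. With the mean of the kept probe sets of a gene, Ubqln4 differed by 0.13 in HeJ and did not pass (adjusted p = 0.542). By the same mean neither Zfand5 (-0.10, adjusted p = 0.756) nor Txnl1 (0.27, adjusted p = 0.0525) passed in OuJ.

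Other protein quality control complexes give a scale for these sizes. The heat shock list was mostly cytosolic but included the mitochondrial Hspd1 and Hspe1. Of its 15 measured genes, 11 rose at 48 h in HeJ (median 1.05) and 14 in OuJ (median 1.56). Hsph1, a heat shock protein that reloads Hsp70 chaperones, had 1553.1, 1590.4 and 2397 at 48 h against 318.1, 345.4 and 336.5 in air in HeJ. In OuJ Hsph1 had 5472, 4749.2 and 7834.8 against 344.7, 316.3 and 416.7, and it rose in both strains (2.39 in HeJ, adjusted p = 0.00039; 3.98 in OuJ, adjusted p = 9.76e-07). Of the 8 subunits of the CCT chaperonin, which folds actin and tubulin, 4 rose in HeJ (median 0.39) and 3 in OuJ (median 0.44), among them Cct7 in both (0.54 in HeJ, adjusted p = 0.0225; 0.65 in OuJ, adjusted p = 0.00955). The 4 HeJ calls, Cct5, Cct7, Cct8 and Tcp1, were all lost without 48 h replicate 2 and all lost without 48 h replicate 3, and leaving out any other of the 6 arrays removed 2 or 3 of them. In OuJ the Cct7 call was lost without air replicate 1 or 48 h replicate 1 or 3. The COP9 signalosome, a complex related to the regulatory-particle lid, had 0 of 9 that passed in each strain, with medians of 0.09 in HeJ and -0.09 in OuJ. Of 6 class I presentation genes 1 fell in each strain, Tap1, the peptide transporter (-0.67 in HeJ, adjusted p = 0.00468; -0.82 in OuJ, adjusted p = 0.00137). The proteasome medians beside these were 0.24 in HeJ and 0.05 in OuJ.

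**Figure D5:**
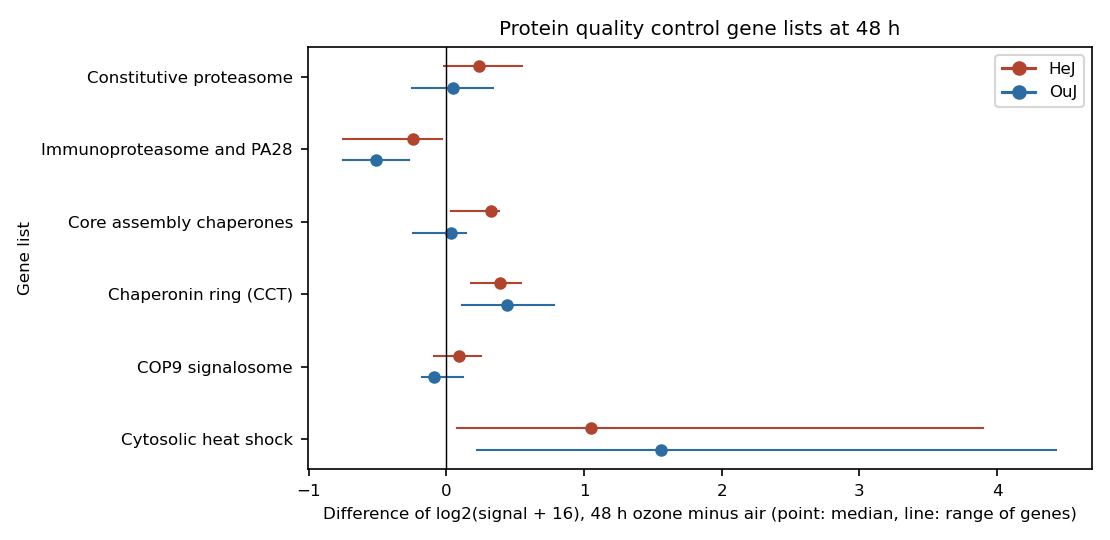
For each gene list the point is the median and the line the range over its measured genes of the difference of log2(signal + 16) between 48 h of ozone and air, HeJ red and OuJ blue. The constitutive proteasome stands at 0.24 in HeJ and 0.05 in OuJ, and heat shock proteins at 1.05 and 1.56. The list drawn as cytosolic heat shock includes the mitochondrial Hspd1 and Hspe1.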

How the data were processed

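RNA from the left lung lobe of each of 24 male mice was hybridized to its own Affymetrix array, per the labels' protocols. The deposited intensity values cover 22690 probe sets (64 of them controls); the authors produced them with GCOS 1.4, per the submitters' processing notes, and the trimmed mean of every array lay between 500.14 and 500.17. A probe set was kept if its signal exceeded 218.3, the median of the table, on 3 or more arrays, which left 12866. Each gene was read from its probe set with the highest mean log2 among those with 1 symbol (8008 genes). The 34 members had 63 probe sets, of which 48 were kept; 17 members had 1 probe set.

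With limma (version 3.58.1; R version 4.3.3; package for reading files data.table, version 1.17.8), group means were fitted to log2(intensity + 16) over all 24 arrays, the variance prior following signal level. The 12 comparisons were each adjusted over all genes by the Benjamini-Hochberg method at 0.05. P-values are two-sided, intervals are 95%, and the number of arrays limits the precision. The code was tested on simulated data in which 7808 of 8008 genes had no change. There, at 48 h in HeJ, 3 of 50 genes with a true log2 change of 0.3 were called. At 0.5 it was 16 of 50 and at 1 it was 46 of 50. In that setting changes of the members' size were thus mostly missed. The labels call the samples biological replicates. Members and gene lists were chosen with earlier results of these data known.

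Values on every array are given for the 2 members of each role with the smallest p at 48 h in HeJ, for Psmb5, Psmb6 and Psmb7, and for other members that passed; of other lists, up to 4 genes that passed are named. Ubiquitin genes and their activating enzymes, also listed, had 0 of 6 measured. Promoter windows are those of RefSeq on GRCm38.p6. A planned comparison of protein sequences was not run.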

Additional observations from a re-analysis of the deposited data

How the results depend on the processing

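The member counts were recomputed under other scalings (quantile, median centring), pseudocounts, filters, probe set rules and sample choices. At 48 h against air in HeJ the count of 8 became 2 with only the groups compared in the fit, 3 without the 4 arrays whose code has a suffix and 1 to 6 on leaving out each array in turn, and lay between 6 and 10 under the other settings. Its median was 0.20 to 0.27 throughout. In HeJ at 24 h against air the count of 1 became 0 with only the groups compared, and 0 to 3 on leaving out each array. In HeJ at 48 against 24 h the count of 1 became 0 under median centring, no filter, the mean of the kept probe sets and only the groups compared, and 0 to 1 on leaving out each array. Without the 4 suffix arrays only 1 HeJ array remained at 24 h, so the counts of that setting at 24 h are not given. In HeJ against OuJ in air the count of 0 became 1, lower, with array weights. The other comparisons stayed at 0 under every setting counted. Same-numbered arrays of the groups compared correlated at -0.077 to 0.201, and at 0.159, 0.068 and 0.201 for 48 h against air in HeJ. Arrays of different numbers were not set beside them, so whether replicate numbers pair the arrays was not settled. With the replicate block the 48 h count in HeJ was 6. The cause of these changes was not tested, and the smaller fits also had fewer arrays. Of the 49 single-gene calls followed, 11 passed under every setting and 0 changed sign. With 3 arrays a group, differences near the members' median of 0.24 are about the size of 2 standard errors (median SE 0.11).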
